A study of Mus musculus with 8 samples.

Results

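The genes Fos, Jun, Myc, Cebpb, Ddit3, Max, Elk1, Atf2 and Creb1 encode transcription factors of the immediate-early and stress responses, and they were chosen by name as 9 of the 248 genes of an inflammation panel measured in mouse conjunctiva. All 9 were found in the table. RNA came from 2 groups of 4 female C57BL/6J mice (given as C57BL/6 in the strain label), labelled as 8 weeks old, and every mouse of both groups had undergone 5 days of desiccating stress (DS), in which moving dry air is combined with scopolamine injections that block tear secretion. The tributyrin mice (numbered 9 to 12) were gavaged daily with 0.5 mM tributyrin, a prodrug of the short-chain fatty acid butyrate, and the vehicle mice (numbered 5 to 8) with PBS. Unstressed mice were not analysed here, so the values describe stressed tissue with and without tributyrin and do not measure the response to DS itself. Keratin and mucin genes that would mark conjunctival epithelium are not among the 248 genes, so the tissue label was not checked against its own markers.

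Immediate-early genes are transcribed within minutes of a stimulus, without new protein synthesis, and their mRNAs decay quickly. FOS and JUN pair through leucine zippers to form the dimer AP-1, MYC pairs with MAX through a helix-loop-helix zipper, and CEBPB and DDIT3 (CHOP) pair with each other. ELK1, ATF2 and CREB1 are present before a stimulus, are switched on by phosphorylation, and are known regulators of genes such as Fos and Jun. On this textbook basis Fos, Jun, Myc, Cebpb and Ddit3 are called inducible below and Max, Elk1, Atf2 and Creb1 constitutive.

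The sequence before the gene start is shown for Fos, whose values set it apart below, and for its partner Jun. The windows were taken from RefSeq tables of build GRCm38.p6, which held a promoter for 8 of the 9 genes (Myc was not matched). For Fos the 250 bases are chr12:85473640-85473889 on the plus strand, and for Jun they are chr4:95052223-95052472 on the minus strand. Capitals mark matches to the motifs searched on both strands, which were TGACTCA (the AP-1 site), TGACGT and the longer TGACGTCA that contains it (the cAMP response element), TGACATCA, CACGTG (the E-box bound by MYC and MAX) and TATAAA.
Fos: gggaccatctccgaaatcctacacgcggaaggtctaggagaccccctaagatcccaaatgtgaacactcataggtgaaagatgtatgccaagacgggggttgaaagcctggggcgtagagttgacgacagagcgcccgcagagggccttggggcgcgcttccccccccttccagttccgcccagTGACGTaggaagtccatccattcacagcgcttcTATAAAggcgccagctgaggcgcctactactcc
Jun: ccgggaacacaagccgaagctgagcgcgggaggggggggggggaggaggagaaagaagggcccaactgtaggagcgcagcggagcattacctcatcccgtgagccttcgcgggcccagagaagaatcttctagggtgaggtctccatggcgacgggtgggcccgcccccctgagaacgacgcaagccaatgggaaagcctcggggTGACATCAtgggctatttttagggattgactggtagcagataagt
The Fos window holds TGACGT starting 66 bases before the gene start and TATAAA starting 33 bases before it. The Jun window holds TGACATCA starting 45 bases before the gene start. Among all 32851 promoter windows of 300 bases in the table, 7.51% hold TGACGT, 3.62% TGACATCA and 13.6% TATAAA.

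Further stretches of 30 bases show matches for the partners of the other dimers and for a factor acting on Fos. TGACTCA occurs in the window of Ddit3 (5.2% of all windows hold it), and CACGTG occurs in those of Max and Elk1 (7.15% of all windows). The match starts 242 bases before the gene start in Ddit3. In Max it starts 3 bases before the gene start and runs across it, and in Elk1 it lies past the gene start. The stretches are chr10:127290543-127290572 for Ddit3 (plus strand), chr12:76962233-76962262 for Max (minus strand) and chrX:20950583-20950612 for Elk1 (minus strand), with the match in capitals.
Ddit3: cgcgcgcaTGACTCActcacctcctccgcg
Max: gtgagcccggtCACGTGttagggggccgat
Elk1: ccatgagagccCACGTGagcggtggggaaa
Cebpb had TATAAA 21 bases past its annotated start, and the windows of Atf2 and Creb1 held no match to these letters. These matches describe the sequence only, and binding was not measured.

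The platform counts fluorescent barcodes on probes hybridized to each transcript, and the deposited log2 values had been scaled by the authors to reference genes. Normalized counts below are 2 to the power of those values. Each transcript is counted once whatever its length, but each gene has its own probe, so the order of genes below is an order of normalized counts and not of transcript numbers. Scaling factors and counts before scaling could be recovered for every mouse, because all values of a mouse were whole multiples of 1 step. The recovered totals were 742068 to 1344723 counts in tributyrin mice and 1035041 to 1494519 counts in vehicle mice, with the lowest totals in tributyrin mice 9 and 12. The 9 genes rested on at least 201 recovered counts in every mouse, so none was near the low end of the panel. The mice are separate animals by their labels, and other differences between them, such as cage, were not given.

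Fos was the most abundant of the 9 genes and the one that differed most between mice. Its normalized count was 9994, 13614, 10151 and 5859 in tributyrin mice 9, 10, 11 and 12, against 12915, 14783, 14111 and 10020 in vehicle mice 5, 6, 7 and 8. Mice 10 and 11 lay within the vehicle range, mouse 9 just under it and mouse 12 far below it. The group means were 9904 ± 3172 (SD, n = 4) with tributyrin and 12957 ± 2105 (SD, n = 4) with vehicle. Tributyrin over vehicle gave a log2 fold change of -0.43 (standard error 0.25, 95% interval -1.02 to 0.15), with a limma adjusted p of 0.480 over the 248 genes. An exact permutation test over all 70 assignments of the mice gave p = 0.171 (two-sided, unadjusted), where 0.0286 is the smallest p that 4 against 4 mice allow. Neither test passed its threshold, with a log2 difference close in size to the SD of 0.40 pooled over both groups. Without tributyrin mouse 12 the log2 fold change was -0.20, and without both tributyrin mice 9 and 12 it was -0.12. Leaving out other mice enlarged it, to -0.61 without tributyrin mouse 10 and -0.55 without vehicle mouse 8. It was -0.30 in a fit that took each mouse's scaling factor as a covariate.

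**Figure D1:**
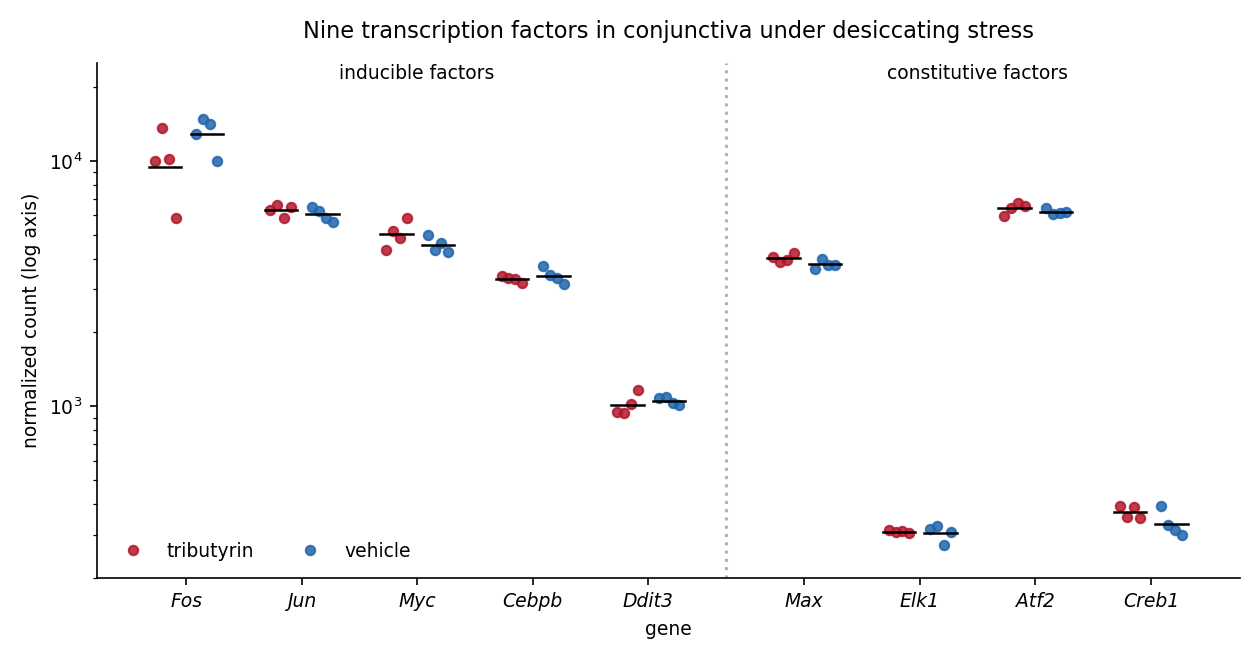
Normalized count of each gene in each mouse (log axis), with tributyrin mice in red to the left of vehicle mice in blue and the geometric mean of each group as a bar. Fos reaches from 5859 in tributyrin mouse 12 to 14783 in vehicle mouse 6, while the points of the other 8 genes lie close together in both groups.

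Jun, the main partner of FOS, was nearly level across the mice. It had 6318, 6594, 5877 and 6470 normalized counts in tributyrin mice 9 to 12, against 6467, 6263, 5864 and 5648 in vehicle mice 5 to 8. The groups overlapped, and the log2 fold change was 0.06 (95% interval -0.09 to 0.21, limma adjusted p = 0.698). Mouse 12, the lowest for Fos, was among the higher mice for Jun.

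As both genes of a mouse share 1 scaling factor, their ratio does not depend on it. Fos over Jun was 1.58, 2.06, 1.73 and 0.906 in tributyrin mice 9 to 12, against 1.997, 2.36, 2.41 and 1.77 in vehicle mice 5 to 8. Only in tributyrin mouse 12 was the normalized count of Fos below that of Jun. On the log2 scale the ratio averaged 0.59 ± 0.51 (SD, n = 4) with tributyrin and 1.08 ± 0.21 (SD, n = 4) with vehicle, and the ranges overlapped.

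Myc, a driver of growth and proliferation, had its highest value in the mouse with the least Fos. It had 4349, 5185, 4867 and 5847 normalized counts in tributyrin mice 9 to 12, against 4968, 4347, 4638 and 4259 in vehicle mice 5 to 8. Tributyrin mice 10 and 12 lay above the vehicle range, and mice 9 and 11 within it. The log2 fold change of Myc was 0.15 (95% interval -0.08 to 0.38, limma adjusted p = 0.523), and without tributyrin mouse 12 it was 0.08. Its partner Max had 4078, 3864, 3952 and 4213 normalized counts in tributyrin mice 9 to 12, against 3631, 3990, 3770 and 3774 in vehicle mice 5 to 8. For Max only vehicle mouse 6 lay above any tributyrin mouse, and the log2 fold change was 0.09 (95% interval -0.04 to 0.21, limma adjusted p = 0.480). Myc over Max ranged from 1.07 to 1.39 in tributyrin mice and from 1.09 to 1.37 in vehicle mice.

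Cebpb, a mediator of interleukin-6 and acute-phase responses, varied little. It had 3404, 3326, 3314 and 3179 normalized counts in tributyrin mice 9 to 12, against 3727, 3424, 3342 and 3144 in vehicle mice 5 to 8. The tributyrin values all lay inside the vehicle range, and the log2 fold change was -0.04 (95% interval -0.19 to 0.11, limma adjusted p = 0.755), with the sign turning under quantile normalization and without vehicle mouse 5. Ddit3, which is induced by endoplasmic reticulum stress, had 944, 942, 1022 and 1164 normalized counts in tributyrin mice 9 to 12, against 1083, 1092, 1027 and 1011 in vehicle mice 5 to 8. Tributyrin mouse 12 was again the highest, and 2 of the other tributyrin mice were the lowest of the 8. The log2 fold change of Ddit3 was -0.05 (95% interval -0.24 to 0.13, limma adjusted p = 0.749), and it turned positive under quantile normalization.

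Among the constitutive factors, Atf2, a target of the stress kinases p38 and JNK, was at the level of Jun. It had 5960, 6442, 6749 and 6549 normalized counts in tributyrin mice 9 to 12, against 6447, 6095, 6152 and 6181 in vehicle mice 5 to 8. The groups overlapped, with a log2 fold change of 0.05 (95% interval -0.08 to 0.18, limma adjusted p = 0.705). Creb1, the cAMP response element binding protein, had 394, 354, 388 and 349 normalized counts in tributyrin mice 9 to 12, against 394, 328, 313 and 298 in vehicle mice 5 to 8. Vehicle mouse 5 stood with the tributyrin mice while the other 3 vehicle mice were lower than all of them. The log2 fold change of Creb1 was 0.16 (95% interval -0.06 to 0.39, limma adjusted p = 0.480). Elk1, which joins serum response factor at the Fos promoter, had 313, 306, 309 and 305 normalized counts in tributyrin mice 9 to 12, against 316, 324, 272 and 307 in vehicle mice 5 to 8. Its log2 fold change was 0.02 (95% interval -0.13 to 0.17, limma adjusted p = 0.899), which turned negative under quantile normalization, with the covariate and without vehicle mouse 7.

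In mean normalized count over the 8 mice the order was Fos, Atf2, Jun, Myc, Max, Cebpb, Ddit3, Creb1 and Elk1. The ranges of neighbours in this order overlapped for Fos and Atf2 (through tributyrin mouse 12 alone), Atf2 and Jun, Jun and Myc, Max and Cebpb, and Creb1 and Elk1. They did not overlap for Myc and Max, for Cebpb and Ddit3 or for Ddit3 and Creb1.

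No member passed the comparison of the groups. With limma, 0 of the 9 genes had an adjusted p under 0.05, against 0% of the 248 genes, and 0 of the 9 had an unadjusted p under 0.05, against 12.5% of the panel. The share of 0% was a near miss, as the smallest limma adjusted p of the panel was 0.0516. Up to 7 panel genes passed under the alternatives. The groups did not overlap for 0 of the 9, against 7.26% of the panel. Exact permutation tests gave p = 0.0857 to 0.943 for the 9 genes, with a smallest adjusted p of 0.452 (Max), and their smallest limma adjusted p was 0.480. The members past an adjusted p of 0.05 stayed at 0 in every alternative, including a mean-variance trend, under which 2.82% of the panel passed. The 95% intervals of the 8 genes other than Fos all lay between -0.24 and 0.39 on the log2 scale.

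**Figure D2:**
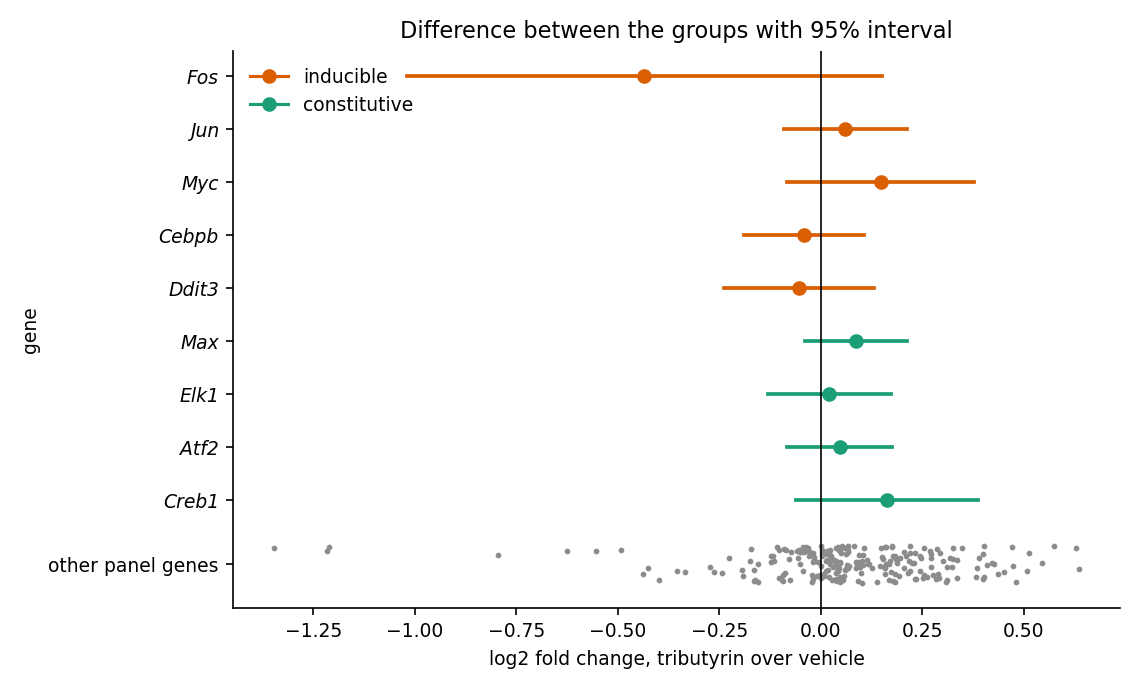
Log2 fold change, tributyrin over vehicle, with its 95% limma interval for each of the 9 genes, above the point estimates of the other 239 panel genes in grey. All 9 intervals cross 0, and that of Fos is the widest, from -1.02 to 0.15.

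The inducible factors had a median log2 fold change of -0.04, with 2 of 5 above 0 and 3 of 5 below it, and the constitutive factors a median of 0.07, with 4 of 4 above 0, although quantile normalization turned the signs of Cebpb, Ddit3 and Elk1. The panel as a whole had a median of 0.06 and 71.4% of its genes above 0 and 28.6% below it, so the 4 positive signs are read against that share. Per mouse, the mean log2 value of the inducible factors minus that of the constitutive ones was 1.56, 1.74, 1.57 and 1.55 in tributyrin mice 9 to 12, against 1.76, 1.77, 1.83 and 1.64 in vehicle mice 5 to 8. The groups overlapped through tributyrin mouse 10 and vehicle mouse 8. The mean difference between the groups was -0.14, and it was -0.05 when Fos was left out. With Fos included it was -0.08 under quantile normalization and -0.09 without tributyrin mice 9 and 12. These set means are descriptions and were not tested.

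In both groups Fos had the widest spread between mice of the 9 genes. The SD of the log2 values of Fos was 0.51 over the tributyrin mice and 0.25 over the vehicle mice, and the fold between the lowest and the highest mouse was 2.32 with tributyrin and 1.48 with vehicle. For comparison, Jun had SDs of 0.07 with tributyrin and 0.09 with vehicle, Cebpb 0.04 and 0.10 in the same order, and Myc 0.18 and 0.10. Ddit3 had 0.14 with tributyrin and 0.06 with vehicle. Among the constitutive factors the SD was 0.02 to 0.09 with tributyrin and 0.04 to 0.18 with vehicle, with Creb1 the widest in both groups.

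Counting error was small beside this spread. From the recovered counts alone an SD of 0.015 was calculated for Fos, so that the observed SD pooled over both groups (0.40) was 27.4 times as large. The ratio was 6.79 for Myc, 4.35 for Jun, 3.23 for Atf2, 3.06 for Cebpb, 2.38 for Ddit3 and 2.36 for Max. For Creb1 it was 1.79 and for Elk1 0.963, so that the differences between mice in Elk1 were no larger than counting alone would give.

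Of the 97 panel genes that averaged 1000 or more normalized counts, whose median pooled SD was 0.07, Fos had the widest spread, ahead of Ifit1 and Mmp3. Within the tributyrin mice it also ranked 1 of 97, and within the vehicle mice it ranked 5 of 97. Among all 248 genes, whose median pooled SD was 0.18, Fos ranked 21 in pooled SD. In that full ranking it was 16 within the tributyrin mice and 64 within the vehicle mice. Without tributyrin mouse 12 the pooled SD of Fos fell to 0.25 and its rank to 6 of 97. The other members of this level ranked from 14 (Myc) to 69 (Max). Jun and Cebpb, at ranks 45 and 46, lay near the middle of the genes of this level, and Atf2, at rank 65, lay with Max among the narrower ones. Among the inducible factors the median pooled SD was 0.11, and 0.09 without Fos, against 0.07 among the constitutive ones. Whether the spread differed between the groups or between the gene sets was not tested.

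**Figure D3:**
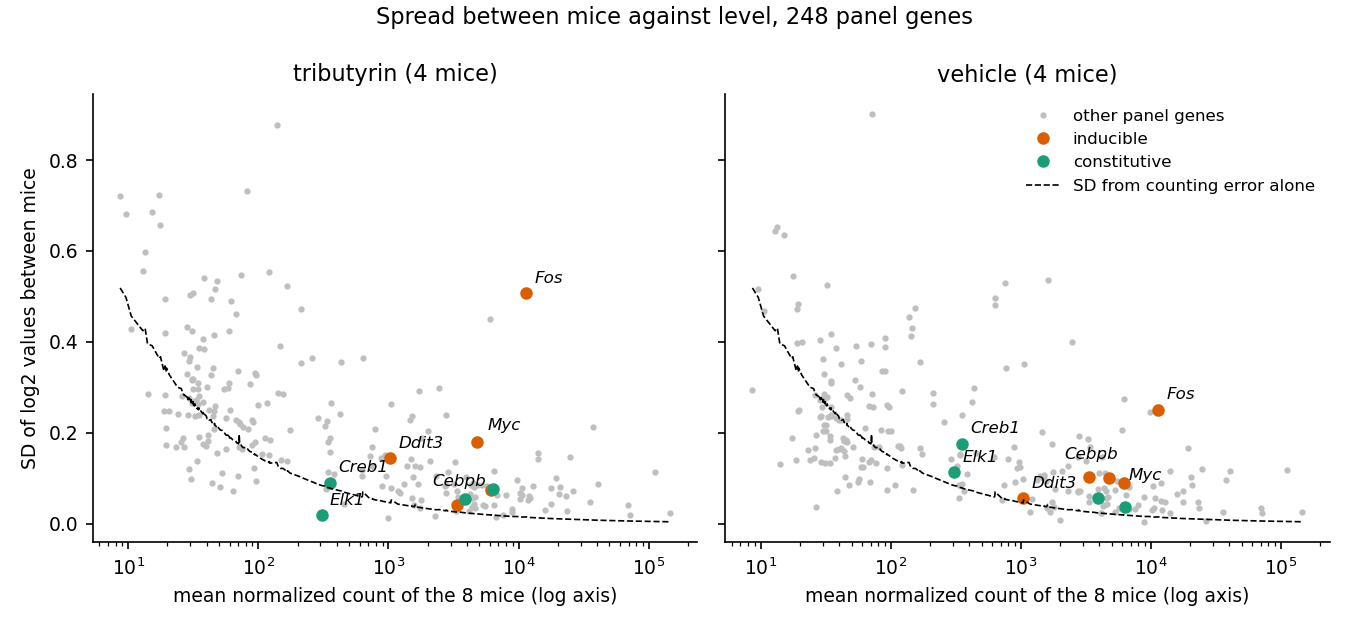
SD of the log2 values over 4 mice (linear axis) against the mean normalized count (log axis) for 248 panel genes, with tributyrin mice on the left and vehicle mice on the right. Fos, with an SD of 0.51 with tributyrin and 0.25 with vehicle, lies far above the dashed line of counting error at its level.

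No relation between Fos and another factor from mouse to mouse passed the test on the deposited values. Over the 8 mice, 8 relations between Fos and the other members were computed with exact permutation p-values over all pairings. Both groups were pooled, so a difference between the groups enters these values. Fos and Max had Pearson r = -0.65 (exact permutation p = 0.0757, adjusted to 0.490) and Spearman rho = -0.48 (exact permutation p = 0.243, adjusted to 0.859), and r = -0.56 without mice 6 and 12, the 2 farthest from the median of Fos. Fos and Cebpb had r = 0.54 (exact permutation p = 0.179, adjusted to 0.490) and rho = 0.52 (exact permutation p = 0.197, adjusted to 0.859), and r = 0.39 without these mice. Fos and Jun had r = -0.05 (exact permutation p = 0.905, adjusted to 0.905) and rho = -0.14 (exact permutation p = 0.752, adjusted to 0.859), and r = 0.42 without these mice. For Fos and Myc r was -0.53 (exact permutation p = 0.184, adjusted to 0.490) and rho -0.21 (exact permutation p = 0.619, adjusted to 0.859), and r turned to 0.63 without these mice, so that its sign rests on them. Of the 8 relations 0 passed an adjusted p of 0.05 as deposited, and 1 passed after median centring, which subtracts a shared value from all genes of a mouse. That was Fos and Cebpb (r = 0.87, exact permutation adjusted p = 0.0218, and rho = 0.86, exact permutation adjusted p = 0.0857), and without mice 6 and 12 its r was 0.68. Median centring also turned r from negative to positive for Max (0.32), Jun (0.57), Ddit3 (0.28), Elk1 (0.59), Atf2 (0.56) and Creb1 (0.30). For Jun rho became 0.79 (exact permutation adjusted p = 0.112). Myc stayed below 0, at r = -0.06. The signs of the relations that turned therefore rest on the scaling. With each group's mean subtracted from the deposited values, r was -0.47 for Max, 0.47 for Cebpb, 0.20 for Jun and -0.35 for Myc. It was -0.66 for Ddit3, 0.004 for Elk1, -0.16 for Atf2 and 0.24 for Creb1. The signs for Jun, Elk1 and Creb1 thus also turned with this step, and these values were not tested.

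**Figure D4:**
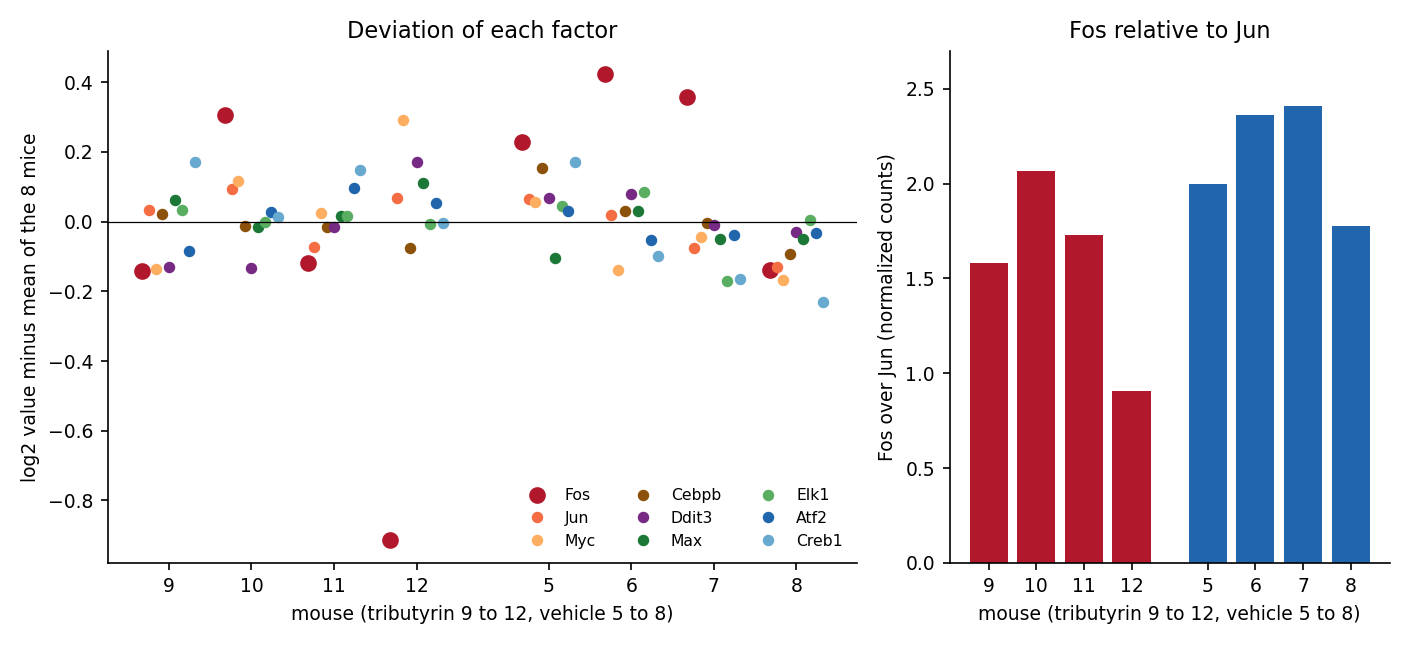
Left, log2 value of each of the 9 genes minus its mean over the 8 mice, and right, the ratio of Fos to Jun (bars from 0), for tributyrin mice 9 to 12 and then vehicle mice 5 to 8. In tributyrin mouse 12 Fos lies 0.91 below its mean while Myc lies 0.29 above its own, and the ratio of Fos to Jun is 0.906, against 1.58 to 2.41 in the other 7 mice.

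Beyond the 9 genes, the panel genes most like Fos over the 8 mice were Prkcb (protein kinase C beta), Il12a and Ly96 (the MD-2 partner of Toll-like receptor 4). Their Pearson r was 0.79 for Prkcb, 0.75 for Il12a and 0.74 for Ly96, and their rho was 0.40, 0.60 and 0.43 in the same order (exact permutation adjusted p = 0.391 for each r over 247 genes, and 0.702, 0.573 and 0.684 for rho). Without mice 6 and 12 their r was 0.48 to 0.51. With each group's mean subtracted, r was 0.78 for Prkcb, 0.67 for Il12a and 0.62 for Ly96. For Il12a all tributyrin mice were lower than all vehicle mice, so a group difference enters its r over the 8 mice. Such non-overlap, in either direction, was found for 7.26% of the panel. The genes most like Jun were Il9, Cxcl2 and Stat3, with r = 0.91, 0.86 and 0.83 and rho = 0.98, 0.64 and 0.79 (exact permutation adjusted p = 0.594 to 0.644 for r and 0.0980 to 0.789 for rho, n = 8 mice). Without mice 7 and 8, the farthest from the median of Jun, the r of these 3 genes was 0.93, 0.63 and 0.60. With each group's mean subtracted it was 0.90, 0.90 and 0.79. Il12a, Il9 and Cxcl2 had mean normalized counts of only 25.6, 30.3 and 32.4. In both rankings 0 of 247 genes passed an adjusted p of 0.05 by r. The smallest adjusted p for Jun was 0.594, that of Il9. For Fos it was 0.202 and belonged to relations of the opposite direction, with Cysltr1 and Ptger4, a leukotriene and a prostaglandin receptor named after their values were seen (r = -0.89 for both, rho = -0.93 with exact permutation adjusted p = 0.184). Without mice 6 and 12 their r was -0.85 for Cysltr1 and -0.86 for Ptger4. With each group's mean subtracted it was -0.85 for Cysltr1 and -0.84 for Ptger4.

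Of the MAP kinase pathways, through which FOS, JUN, ELK1, ATF2 and CREB1 are phosphorylated, 17 genes were measured. All encode kinases except Hras1, which encodes a small GTPase. None passed an adjusted p of 0.05. A log2 fold change above 0 was found for 15 and one below it for 2, where 71.4% of the panel lay above 0. The median was 0.06, the same as that of the panel to 2 decimals. Mknk1, a kinase activated by ERK and p38, had 1617, 1646, 1599 and 1707 normalized counts in tributyrin mice 9 to 12, against 1501, 1557, 1531 and 1472 in vehicle mice 5 to 8. All 4 tributyrin mice were higher than all 4 vehicle mice for Mknk1, with a log2 fold change of 0.12 and a limma adjusted p of 0.372. Of the 17 genes 2 had groups that did not overlap, against 7.26% of the panel. The other was Mapk14, the p38 kinase, named after its values were seen, with a log2 fold change of 0.05 (limma adjusted p = 0.673). The next smallest unadjusted p belonged to Mapkapk5 (log2 fold change 0.17, limma adjusted p = 0.460) and Rps6ka5, a kinase of CREB1 and histone H3 (log2 fold change 0.12, limma adjusted p = 0.480).

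Of the other leucine zipper factors, Maff, Mafg, Mafk and Nfe2l2 were measured, and 0 of the 4 passed. All 4 were above 0, where 71.4% of the panel lay, with a median log2 fold change of 0.05. This median was -0.006 without tributyrin mice 9 and 12 and 0.0002 once scaling factors entered as a covariate. Those with the smallest unadjusted p were Mafg, with 0.09, Nfe2l2, the regulator of antioxidant genes, with 0.07, and Maff, with 0.04 (limma adjusted p = 0.698 to 0.830). Of 13 listed inflammatory genes with known AP-1 or C/EBP sites 12 were measured and 0 passed. Of these 12 genes 8 were above 0, against 71.4% of the panel, 4 were below 0, and the median was 0.12. The sign of this median was not stable, at -0.07 over the members with a mean of at least 100, -0.02 under quantile normalization and -0.01 without tributyrin mice 9 and 12, and it was 0.002 with the covariate. Mmp3, a matrix metalloproteinase and AP-1 target, had 3066, 2658, 2288 and 3717 normalized counts in tributyrin mice 9 to 12, against 2534, 1800, 2281 and 1361 in vehicle mice 5 to 8. Its highest value was in tributyrin mouse 12, where Fos was lowest. Its log2 fold change was 0.57 (95% interval 0.06 to 1.09, limma adjusted p = 0.366). Tnf had 418, 293, 353 and 415 normalized counts in tributyrin mice 9 to 12, against 566, 522, 375 and 432 in vehicle mice 5 to 8, with overlapping groups. Its log2 fold change was -0.35 (95% interval -0.73 to 0.03, limma adjusted p = 0.454), and that of Mmp9, at a mean near the low end of the panel, was 0.27 (limma adjusted p = 0.454).

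Of 7 other stress-inducible genes 6 were measured and 0 passed, with 3 above 0 and 3 below it, where 71.4% of the panel lay above 0. Their median log2 fold change was -0.004 (-0.036 to 0.042 without each mouse). Bcl6, a transcriptional repressor, had 1036, 1053, 1047 and 1034 normalized counts in tributyrin mice 9 to 12, against 934, 994, 954 and 813 in vehicle mice 5 to 8. Bcl6 was thus the 1 gene of these 6 whose groups did not overlap, against 7.26% of the panel. The log2 fold change of Bcl6 was 0.18 (95% interval 0.02 to 0.34, limma adjusted p = 0.366). Nfkb1 had a log2 fold change of -0.04 and Tnfaip3, the A20 brake on NF-kB, one of -0.12 (limma adjusted p = 0.679 and 0.716).

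In whole tissue, a lower level of an mRNA per cell and fewer cells that express it cannot be told apart. For macrophages and monocytes 8 genes were listed (Tyrobp, C1qa, C1qb, Trem2, Cd163, Mrc1, Csf1 and Ccr2). Their summed normalized count was 1999.7 to 2722 in tributyrin mice and 1928 to 2406 in vehicle mice. For dendritic and antigen-presenting cells 5 genes were listed (Cd86, Cd40, Ccr7, H2-Eb1 and H2-Ea-ps), of which 3 had a mean under 50. Their sum was 799 to 1089 in tributyrin mice and 806 to 958 in vehicle mice. Whether each listed gene marks only these cells was not checked, so the sums do not count cells. For both lists tributyrin mouse 12, the lowest for Fos and the highest for Myc and Ddit3, had the highest sum of its group. Of these markers 0 passed the test. The endothelial marker Flt1 ranged from 123 to 269 in tributyrin mice and from 106 to 188 in vehicle mice, again with the highest value in mouse 12. Cd4 and Il2, for T cells, summed to 53.5 to 74.3 in tributyrin mice and 44.3 to 64.1 in vehicle mice, Cxcr2, for neutrophils, ranged from 28.5 to 46.7 in tributyrin mice and from 24.9 to 32.6 in vehicle mice, and Myl2, for muscle, from 40.8 to 62.3 in tributyrin mice and from 34.6 to 50.3 in vehicle mice. The part of cell composition, and that of the low recovered total of mouse 12, in the values of that mouse was not tested.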

How the data were processed

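Conjunctival RNA of 8 mice was hybridized to an nCounter panel of mouse inflammation genes. Using ROSALIND software, the authors divided out the geometric mean of 6 reference genes, and the deposited table holds log2 normalized counts, 1 column per mouse. How background was treated is not given in the sources read. All 248 genes were kept without a filter. On the linear scale 100% of values were whole multiples of a step particular to the mouse (tolerance 0.001 of a count), from which counts before scaling were recovered. A constant added or subtracted before scaling would not be seen. No 2 columns were identical.

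Groups were compared with limma 3.58.1 in R 4.3.3 (lmFit, eBayes without a trend, two-sided), with p-values adjusted over 248 genes by the Benjamini-Hochberg method. Permutation tests ran over all 70 ways to assign the mice, and correlations over all pairings. The settings varied were the pseudocount (10), a minimum mean of 20 or 100, the scaling (median centring or quantile normalization), a mean-variance trend, voom on recovered counts, an exact rank test, the scaling factor as a covariate and leaving out mice. The limma fit was tested on simulated data. Counting SDs cover counting error only. The members and lists were chosen with earlier results of these data known. Named were the 9 genes, the 3 lowest unadjusted p-values in each list, and the 3 most like Fos and Jun. Ifit1, Mapk14, Cysltr1 and Ptger4 were named after their values were seen. Other software was SciPy 1.17.1 under Python 3.11.15.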

Additional observations from a re-analysis of the deposited data

Results flagged for a closer look

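In groups of 4 mice, 56 sets of values were examined for 1 mouse far from the other 3, of which 18 were those of the 9 genes. None of the 18 held such a mouse, Fos in tributyrin mice included. Of all 56 sets 2 did, where chance, at about 1 in 20, gives 2.8. Prkcb had a log2 value of 10.26 in vehicle mouse 8, low beside 10.64 to 10.70 in the other vehicle mice. The mean log2 value of the inducible factors minus that of the constitutive ones was 1.745 in tributyrin mouse 10, high beside 1.55 to 1.57 in the other tributyrin mice.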

How the results depend on the processing

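Of 153 values of the 9 genes under alternatives, 147 kept direction and side of the threshold and 6 changed sign, none past the threshold: Cebpb (0.018 with quantile normalization, -0.080 to 0.0017 without each mouse), Ddit3 (0.057 with quantile normalization) and Elk1 (-0.046 with quantile normalization, -0.0071 with the covariate, -0.034 to 0.051 without each mouse). Fos kept its sign, at -0.61 to -0.20 without each mouse, with a limma adjusted p of 0.233 to 0.979 over all its alternatives. Without each mouse the log2 fold change was 0.075 to 0.22 for Myc, 0.027 to 0.094 for Jun, 0.022 to 0.082 for Atf2, -0.12 to -0.018 for Ddit3 and 0.11 to 0.25 for Creb1, lowest for Myc without tributyrin mouse 12, for Jun without vehicle mouse 8, for Atf2 without tributyrin mouse 11 and for Ddit3 without tributyrin mouse 12, and highest for Creb1 without vehicle mouse 5. The inflammatory list's median was 0.067 to 0.18, lowest without tributyrin mouse 9. Over the panel, 0 genes passed an adjusted p of 0.05 as deposited. The count was 6 under a pseudocount of 10, under a minimum mean of 20 and under median centring, 7 under a minimum mean of 100, a mean-variance trend or voom, and 0 to 6 without each mouse (1 without vehicle mouse 5, 6 without vehicle mouse 8 and 4 without tributyrin mouse 11). None of these genes was among the 9. With quantile normalization the median log2 fold change of the genes of the MAP kinase pathways was 0.092. The median SD of the inducible minus the constitutive factors was then -0.013 (0.038 as deposited, 0.011 to 0.055 without each mouse). Under the same setting the inducible factors without Fos lay 0.020 above the constitutive ones. The minimum mean of 100 put the inflammatory genes at -0.073, with fewer genes in the list. Of the relations with Fos 1 passed with median centring, an alternative chosen after seeing the data. The pooled SD of Fos was 0.25 to 0.44 without each mouse, lowest without tributyrin mouse 12, and 0.26 without mice 9 and 12. Apart from the minimum mean and the left-out mice, the cause was not tested. No paired analysis was run, because the groups are separate animals and the labels record no pairing. Counting error was as large as the spread of Elk1 and smaller than that of the other 8 genes.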
